A study of Mus musculus with 123 samples.

Results

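The synaptic vesicle and release machinery was followed as 53 genes, listed by symbol, that code for proteins which dock, prime, fuse, fill and recycle vesicles. Of these, 52 had a row among the 24134 genes of the tables, and Vamp7 was not analysed here. The genes were chosen by name, but with earlier results of these data known. They were ordered by role: SNARE proteins, SNARE regulators, calcium sensors, active zone and priming proteins, Rab GTPases, vesicle membrane proteins, glutamate transporters and endocytosis proteins.

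Dorsal root ganglion (DRG) neurons were collected after sciatic nerve transection (SNT), in which the right sciatic nerve was cut at mid thigh, and the ganglia of the uncut limb of those mice gave the control side. At day 3 the mice were 2-month-old F1 offspring of CAST/Eij males and C57BL/6 females, and the methods of the paper give the F1 mice as female. Day-3 neurons were profiled singly (48 SNT-side and 22 control-side cells, of which the authors kept 41 and 18) and as pools (3 libraries per side). At day 7 the mice were 2-month-old C57BL/6 animals of both sexes, with 33 SNT-side and 14 control-side cells, all of them kept. Neurons were picked by hand from dissociated ganglia and amplified by Smart-seq2, which carries no molecular identifiers, and the protocol label of the day-7 cells names both 3 and 7 days, so their titles set the day. The cut reaches only axons that run in the sciatic nerve, so SNT-side ganglia also hold neurons that were not cut. The neurons of 1 side were lysed together before they were divided, so the 3 pooled libraries per side are technical parts of 1 pool. The p-values below therefore measure technical spread and not the spread between animals. Cells were not traced to animals in the labels, so the cells of 1 side and day were 1 sample and were compared without a test.

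At a synapse, vesicles are held at the active zone by large scaffold proteins, primed by Munc13, RIM and CAPS proteins, and fused when calcium binds a synaptotagmin and the SNARE proteins zip together. Complexins hold the SNARE complex, and NSF with its SNAP adaptors takes it apart for another round. DRG neurons release glutamate in the spinal cord, and some also release neuropeptides from dense core vesicles. In the cell body, where these libraries were made, the same proteins also serve membrane traffic towards the axon.

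Total counts were 563462 to 839135 in the pooled control libraries, 1148849 to 2003817 in the pooled SNT libraries and 261351 to 1849130 in the kept cells. Levels are given as CPM, counts scaled to a library total of 1000000, with no correction for gene length, so levels were not compared between genes. The sides of the pooled libraries were taken from the column names. The identifier line of the table pairs names and sides the opposite way, which would turn every sign. The summed level of 7 axotomy response genes (Atf3, Jun, Sprr1a, Gal, Npy, Sox11 and Gap43) was 212 to 273 CPM in the libraries named as control and 9221 to 10176 CPM in those named as SNT. All 8 sensory neuron markers had a mean of at least 10 CPM in every group. All 10 markers of satellite glia and Schwann cells did too in both pools, with a summed level of 13036 to 15749 CPM in the control pools and 6399 to 7218 CPM in the SNT pools, and the part of this difference in the results below was not tested.

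In the pooled neurons the summed CPM of the release machinery, before any scaling beyond library size, was a little lower on the SNT side. Single members moved far in both directions. The 52 genes together made up 15419 to 16257 CPM in the control libraries and 14093 to 14498 CPM in the SNT libraries. A gene was called at an edgeR adjusted p below 0.05 together with a log2 change beyond 1. By this rule 3 members rose (Napa, Rab3b and Slc17a7), 9 fell (Syt1, Syt7, Syt9, Rims2, Unc13c, Rab27b, Rph3a, Synpr and Sv2a) and 40 did neither. Of the 13509 genes tested, 16% were called, 8.85% as higher and 7.1% as lower, so 3 of 52 members was a smaller share than the background and 9 of 52 a larger one. The median log2 change of the members was -0.03, against 0.02 over all genes tested. With no limit on size, 11 members passed as higher and 14 as lower, against 14% and 10.8% of all genes. In CPM, the 3 libraries of one side did not overlap the 3 of the other for 32 of the 52 members, against 38% of all genes. Changes are after TMM scaling, which sets the libraries to a common level over most genes, and scaling by library size alone moves the median of all genes from 0.02 to -0.14. It also turns the 1196 higher and 961 lower calls over all genes into 980 and 1264, and the calls of members into 2 higher (without Napa) and 9 lower. The sums and the overlap above are of CPM without TMM scaling. The TMM factors were 1.053 to 1.060 in control libraries and 0.938 to 0.958 in SNT libraries. Dividing CPM by these factors brings the sums of the sides closer, so the lower sum depends on the scaling. In bulk samples, fewer neurons of a subtype and less RNA per neuron cannot be told apart.

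**Figure D1:**
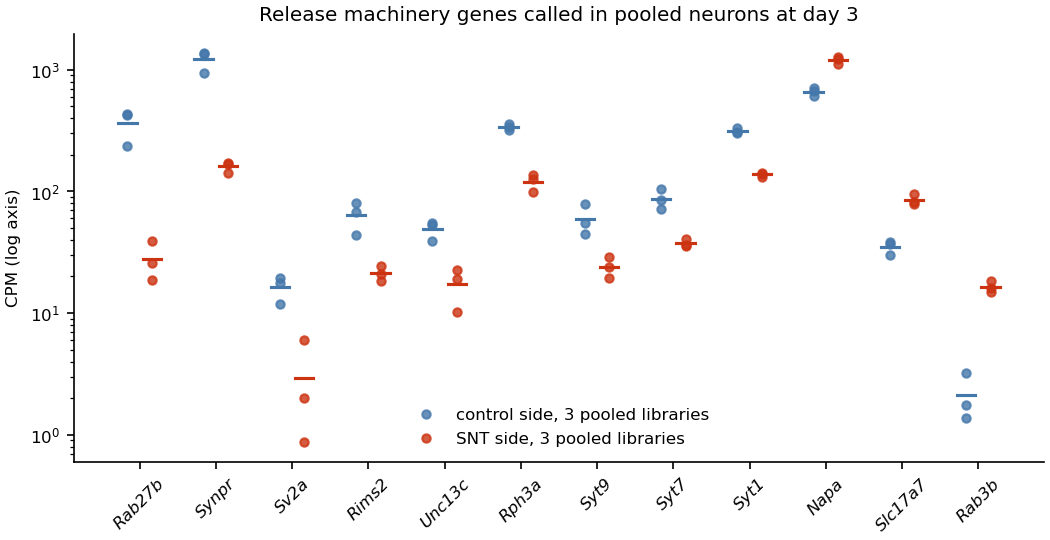
CPM on a log axis of the 12 members called in pooled neurons at day 3, with the 3 control-side libraries in blue and the 3 SNT-side libraries in red, and bars at the means. For each of the 12 genes the libraries of the sides do not overlap, and the gap is widest for Rab27b, Synpr and Rab3b.

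The single cells at day 3 lay lower for most of the machinery. The summed level per cell had a median of 15562 CPM for the 18 cells of the control side (lowest 12358, highest 19352) and 12909 CPM for the 41 of the SNT side (lowest 8652, highest 20622). Of 48 members that reached a mean of 10 CPM on one side or the other, 39 had a lower mean on the SNT side, with a median log2 ratio of -0.46 against -0.05 over 9736 genes. Of those 9736 genes, 5267 had a ratio below 0. Past the fold limit, a log2 ratio of mean CPM + 1 beyond 1, were 7 members, all lower on the SNT side: Cplx2, Syt7, Syt9, Cadps, Pclo, Rab27b and Rph3a. Among all genes 11.9% passed this limit, 5.82% as higher and 6.07% as lower. By medians over cells 16 members passed (15 lower), by counts summed over cells 12 (11 lower), and with the 11 removed cells put back 3 (Rab27b and Rph3a lower and Snap23 higher). No share of all genes is given for these alternatives, so their counts have no background. SNT-side cells were deeper, with a median total of 1323932 counts against 862619, and the summed markers of peptidergic nociceptors had a median of 411 CPM against 2984 CPM on the control side, those of non-peptidergic nociceptors 905 against 1243 CPM and those of glia 3937 against 3829 CPM. The part of these in the counts was not tested.

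At day 7 the balance was even. The summed level per cell had a median of 14863 CPM for the 14 cells of the control side (lowest 13533, highest 20277) and 15164 CPM for the 33 of the SNT side (lowest 11123, highest 25807). The median log2 ratio of 50 members was -0.02, against -0.07 over 9622 genes. Higher on the SNT side past the limit were Rab3c, Sv2a and Slc17a7, and lower were Syt5, Rab3d, Rab27b, Rph3a and Synpr, against 4.45% and 3.2% of all genes (7.66% together). In males alone 5 members passed and in females alone 12, with Rab3c and Sv2a higher in both. The summed glial markers had a median of 5414 CPM in control-side cells but 1495 CPM in SNT-side ones, and their part was not tested. Rab27b and Rph3a were the members past the limit in the same direction on both days, Rab27b narrowly so at day 7. Leaving out the highest control-side cell of each gene, an alternative chosen after seeing the data, kept Rph3a as the only lower member past the limit at day 7, and 6 members were higher (Rab3c, Sv2a, Slc17a7, Syt4, Syt7 and Cadps2). No share of all genes is given for this alternative or for the sexes alone. The days differ in strain, sex, ganglia, read length and the mixture of neurons, with a median summed level of large myelinated neuron markers of 318 CPM in control-side cells at day 3 and 3900 CPM at day 7, so they were set side by side and not tested against each other.

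**Figure D2:**
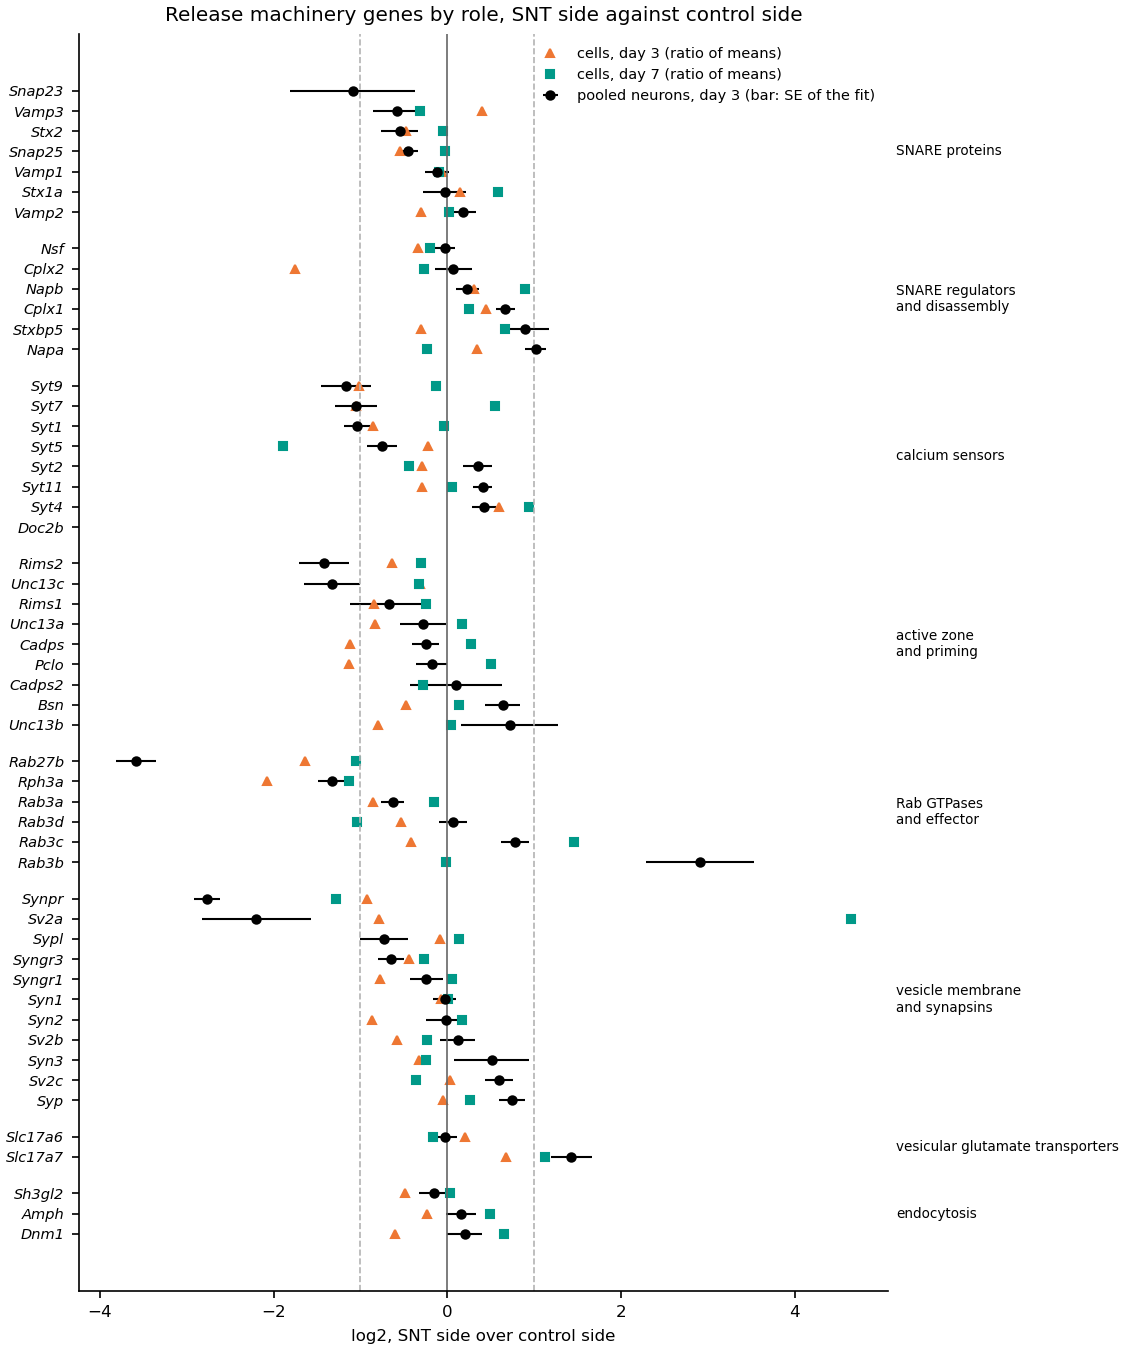
Log2 difference, SNT side over control side, of the release machinery genes by role, with pooled neurons at day 3 as black circles (bars are the SE of the edgeR fit), cells at day 3 as orange triangles and cells at day 7 as green squares; cell ratios are shown where the higher side reached 10 CPM, and dashed lines mark -1 and 1. Doc2b, at 0 in every pooled control library, is not drawn, and the cell points at day 3 lie left of 0 for 39 of 48 genes, against 5267 of 9736 over all genes.

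The SNARE proteins, which form the fusion complex, held no called gene. None of the 7 measured members passed both limits in pooled neurons, and their median log2 change was -0.45. Snap25, the plasma membrane SNARE of neurons, stood at 1870, 1627 and 1744 CPM in the control libraries and at 1179, 1149 and 1101 CPM in the SNT libraries. All SNT libraries lay below all control libraries, and its log2 change was -0.45 ± 0.11 (SE, n = 3 per side, edgeR adjusted p = 0.0021), short of the size limit. Vamp2, the main vesicle SNARE, read 307, 397 and 252 CPM in control pools and 301, 322 and 350 CPM in SNT pools. Those sides overlap, and the log2 change was 0.18 ± 0.15 (adjusted p = 0.45, edgeR). Stx1a, the syntaxin partner of Snap25, gave 52.3, 47.7 and 65.7 CPM against 44.2, 50.5 and 49.4 CPM, also overlapping, with a log2 change of -0.03 ± 0.25 (adjusted p = 0.95, edgeR). Stx2, a syntaxin found in many tissues, was the only other SNARE past the p limit in pooled neurons (-0.55, adjusted p = 0.046, edgeR).

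Single neurons carried these SNAREs at very unequal levels on both sides. Snap25 ranged from 330 to 3938 CPM (median 1228) on the control side at day 3 and from 157 to 4227 CPM (median 583) on the SNT side, a log2 ratio of the means of -0.54. The ranges overlap almost fully, and 11 of 41 SNT-side cells were under the control range. The day-7 medians were 2321 and 2041 CPM, with a log2 ratio of -0.03. Vamp2 had medians of 595 CPM (183 to 791) and 457 CPM (68.6 to 716) at day 3 and of 380 CPM (45.8 to 562) and 296 CPM (25.4 to 829) at day 7. Stx1a had medians of 53.4 CPM (0 to 143) and 55.3 CPM (0 to 234) at day 3 and of 4.55 CPM (0 to 31) and 2.67 CPM (0 to 67.0) at day 7, with overlapping ranges on both days. No SNARE member passed the fold limit on either day.

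The more widely expressed forms Snap23 and Vamp3, which serve fusion outside synapses, were not called in the pools. Snap23 read 16.5, 5.96 and 3.55 CPM in the control pools and 5.38, 1.74 and 3.49 CPM in the SNT pools, which overlap (log2 change -1.09 ± 0.72, adjusted p = 0.29, edgeR). Vamp3 read 51.4, 46.5 and 44.4 CPM and 31.7, 20.1 and 31.9 CPM, which do not overlap but missed the p limit (log2 change -0.58 ± 0.28, adjusted p = 0.14, edgeR). The summed glial markers were also lower in the SNT pools, as given above, and their part in these values was not tested. In kept day-3 cells the means went the other way. Snap23 was at 2.74 CPM on the control side and 4.42 CPM on the SNT side, and Vamp3 at 27.7 and 36.8 CPM. At day 7 the means were 2.71 and 2.55 CPM for Snap23 and 15.8 and 12.5 CPM for Vamp3.

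Among the SNARE regulators, Napa rose in the pools and 5 others were not called. Napa codes for alpha-SNAP, the adaptor that brings NSF to used SNARE complexes. It stood at 672, 707 and 609 CPM in the control libraries and at 1270, 1109 and 1236 CPM in the SNT libraries. The lowest SNT library was above the highest control library, and the log2 change was 1.02 ± 0.12 (edgeR adjusted p = 1.1e-08), just past the size limit. With library-size scaling it was 0.86, and without control library 3 it was 0.96, so its call rests on the size limit. In cells its log2 ratio was 0.34 at day 3, with medians of 649 and 787 CPM, and -0.23 at day 7, with medians of 577 and 456 CPM.

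Complexins, the small proteins that clamp the SNARE complex, diverged. Cplx1 passed the p limit in pools without reaching the size limit, with 1327, 1487 and 1432 CPM against 1919, 1960 and 2154 CPM and a log2 change of 0.67 ± 0.11 (edgeR adjusted p = 1.1e-05). Cplx2 read 86.6, 70.9 and 92.4 CPM against 94.7, 75.3 and 64.9 CPM in the pools, overlapping (log2 change 0.07 ± 0.21, adjusted p = 0.86, edgeR). In day-3 cells, by contrast, Cplx2 had a mean of 110 ± 129 CPM (SD over 18 cells) for the control side and 32 ± 75.5 CPM (SD over 41 cells) for the SNT side, a log2 ratio of -1.75. Its medians of 21.8 and 13.9 CPM were much closer, with highest cells of 422 and 487 CPM. Stxbp5, the tomosyn that competes for SNARE binding, had a log2 change of 0.90 in pools (adjusted p = 0.013, edgeR), while Nsf (-0.03) and Napb (0.23) did not pass.

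The calcium sensors split, with 3 synaptotagmins falling and none rising past the limits. Syt1, the fast calcium sensor of release, stood at 311, 330 and 305 CPM in control pools and 132, 140 and 142 CPM in SNT pools. The sides were far apart for the spread within each, with a log2 change of -1.04 ± 0.15 (n = 3 per side, edgeR adjusted p = 9.3e-07). Syt7, a slow, high-affinity sensor, read 71.5, 105 and 85.2 CPM against 35.3, 36.6 and 40.9 CPM (log2 change -1.05 ± 0.24, edgeR adjusted p = 6.5e-04). Syt9, another calcium-binding synaptotagmin, read 78.4, 54.8 and 44.4 CPM against 23.9, 28.7 and 19.5 CPM (log2 change -1.17 ± 0.29, edgeR adjusted p = 0.0018). All 3 lie close to the size limit: Syt1 came to -0.98 and Syt7 to -0.98 without SNT library 1, Syt7 to -0.89 without control library 2, and Syt9 to -0.93 without control library 1.

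The other sensors differed less in pools. Syt5 passed the p limit downwards (-0.75, adjusted p = 7.5e-04, edgeR), and Syt11 (0.41) and Syt4 (0.42), which do not bind calcium in the usual way, passed it upwards with adjusted p of 0.0063 and 0.024 by edgeR. Doc2b, a soluble calcium sensor, was at 0 in the control pools and at 1.20, 2.61 and 2.99 CPM in the SNT pools, with 11 counts in all. Set against a limit of 3 counts over the control group, the 11 counts are 1.62-fold higher per total. That ratio leaves out the counting error of the SNT side, so it is not a lower bound. The adjusted p of Doc2b by edgeR was 0.098. With Doc2b at this ratio the median of the members was still -0.03.

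In day-3 cells Syt7 and Syt9 were lower just past the fold limit and Syt1 was short of it. Syt7 had medians of 173 CPM (2.29 to 415) and 29.5 CPM (0 to 437), with a log2 ratio of the means of -1.05. Syt9 had medians of 101 CPM (0 to 205) and 17.9 CPM (0 to 204), with a ratio of -1.02. Cells of the sides overlap over nearly the whole range for both. Syt1 had medians of 398 CPM (41.7 to 768) and 142 CPM (14.4 to 512) and a ratio of -0.85. With a pseudocount of 10 Syt7 was at -0.97 and Syt9 at -0.89, and with the removed cells at -0.94 and -0.95, all short of the limit, while Syt1 passed it by medians and by summed counts.

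The sensors looked different at day 7. Syt5 had medians of 14.3 CPM (0 to 426) and 2.34 CPM (0 to 172) and a log2 ratio of -1.89. This ratio rests on 1 control-side cell of a male at 426 CPM, next to 54.9 CPM for the second highest, and without that cell it was -0.33. Taken apart by sex it was -0.50 in females and -3.05 in males, where it came to 0.43 without the same cell. Differences between the sexes were tested for no gene. Syt1 (-0.04), Syt9 (-0.13) and Syt7 (0.55) came to 0.48, 0.86 and 1.84 without the highest control-side cell of each gene, so their day-7 values also move with single cells. Levels of some synaptotagmins went with or against Nefh, the neurofilament of myelinated neurons, in the 18 control-side cells of day 3. Spearman's rho with Nefh was 0.88 for Syt2 and -0.88, -0.80, -0.69 and -0.68 for Syt1, Syt7, Syt5 and Syt9. Those of Syt4 and Syt11 are not given. Cells of 1 side share their mice and day, and these coefficients are descriptions. Syt2 had no counts in 9 of the 18 control-side cells and reached 511 CPM in others.

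Of the 9 active zone and priming genes, 2 fell in the pools and none rose. Rims2, a RIM scaffold that ties vesicles to calcium channels, stood at 79.8, 44.1 and 67.4 CPM in control pools and at 18.5, 24.4 and 21 CPM in SNT pools. Every SNT library was lower than every control library (log2 change -1.42 ± 0.29, edgeR adjusted p = 2.0e-04). Unc13c, a Munc13 priming factor, read 55.0, 39.3 and 53.2 CPM against 10.2, 19.1 and 22.5 CPM (log2 change -1.33 ± 0.32, edgeR adjusted p = 0.0017). Bsn (Bassoon), one of the large scaffolds, passed the p limit upwards at 0.64 (adjusted p = 0.014, edgeR), and Pclo (Piccolo), the other, was at -0.18 (adjusted p = 0.54, edgeR).

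In the day-3 cells the log2 ratios of all 8 active zone members with enough counts were below 0, with a median of -0.81, as were those of all 5 Rab GTPases and effector, with a median of -0.85. Over all genes, 5267 of 9736 ratios were below 0. Cadps codes for CAPS-1, a priming factor for dense core vesicles. Its median was 301 CPM (142 to 433) on the control side and 94.4 CPM (35.3 to 358) on the SNT side, with a log2 ratio of the means of -1.12. Pclo had a median of 176 CPM (110 to 348) and of 75.9 CPM (27.5 to 243), with a ratio of -1.13. For Pclo 33 of 41 SNT-side cells were under the control range, for Cadps 25 and for Unc13a, the main Munc13 of excitatory synapses, 23. Over all genes, 1.87% had at least 21 of the 41 cells under the control range, and 6 of 48 members did, the other three being Rab3a (28 cells), Syngr1 (31) and Syt11 (21). No member had as many cells over the control range, as 2.96% of all genes did.

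At day 7 the active zone role was split, with 5 ratios above 0 and 4 below, against 4211 above and 5411 below over all genes. Pclo and Cadps, lower past the limit at day 3, lay above 0. Pclo had medians of 219 CPM (117 to 459) on the control side and 343 CPM (183 to 820) on the SNT side, a log2 ratio of 0.50. For Cadps the medians were 356 CPM (293 to 633) and 546 CPM (204 to 880), a ratio of 0.27. No active zone gene passed the fold limit at day 7, and their median was 0.04. In the day-3 pools Cadps (-0.25, adjusted p = 0.28, edgeR) and Unc13a (-0.28, adjusted p = 0.47, edgeR) did not pass either.

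The Rab GTPases and their effector held both the lowest and the highest log2 change among the 12 called members in pools. Rab27b, which guides secretory vesicles to the membrane, stood at 432, 235 and 429 CPM in control pools and at 18.6, 39.2 and 25.7 CPM in SNT pools. The sides do not come near each other, and the log2 change was -3.59 ± 0.23 (n = 3 per side, edgeR adjusted p = 4.3e-16). Rph3a codes for rabphilin, which binds Rab3 and Rab27 on vesicles. It read 358, 322 and 341 CPM in control pools and 99.8, 126 and 136 CPM in SNT pools, again without overlap, with a log2 change of -1.33 ± 0.16 (edgeR adjusted p = 1.2e-08).

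Both genes were also lower in the cells of the SNT side on both days. At day 3 the median of Rph3a was 398 CPM (26.4 to 911) for neurons of the control side and 40.8 CPM (0 to 435) for those of the SNT side, with a log2 ratio of the means of -2.08. At day 7 the medians were 731 CPM (411 to 971) and 282 CPM (0 to 1329) and the ratio was -1.13. There 19 of 33 SNT-side cells were under the control range, while 2 were over it. Rab27b had medians of 140 CPM (0 to 734) and 3.75 CPM (0 to 700) at day 3 (ratio -1.64) and of 24.8 CPM (0 to 224) and 4.03 CPM (0 to 112) at day 7 (ratio -1.05). Its cells overlap at both ends, with cells at 0 on both sides of both days. By sex at day 7, Rab27b was at -2.16 in females and -0.55 in males, and Rph3a at -1.54 and -0.91, so neither was past the limit in males. The day-7 ratio of Rab27b was also short of the limit with a pseudocount of 10 (-0.82), with median-of-ratios scaling (-0.97) and without its highest control-side cell (-0.54), and in males it came to 0.68 without that cell. For Rph3a the ratio without its highest control-side cell was -1.09.

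The 4 Rab3 genes, whose products ride on synaptic vesicles, went separate ways. Rab3b rose in the pools from 1.38, 3.2 and 1.77 CPM to 16.1, 18.3 and 15 CPM (log2 change 2.91 ± 0.62, edgeR adjusted p = 3.8e-04). The control libraries together held only 4.72 counts of it, and the ratio of the summed counts per total was 7.3, with a 95% interval from counting of 2.83 to 21.8. In single cells of day 3 Rab3b was at 0 in 15 of 18 control-side and 22 of 41 SNT-side cells. The SNT-side cells were deeper, and the part of depth in these shares was not tested. Rab3a, the most studied Rab of vesicle release, passed the p limit downwards, with 789, 884 and 813 CPM against 439, 506 and 497 CPM and a log2 change of -0.63 ± 0.13 (edgeR adjusted p = 1.7e-04). Rab3c passed it upwards, with 227, 168 and 140 CPM against 269, 288 and 272 CPM and a log2 change of 0.78 ± 0.16 (edgeR adjusted p = 2.6e-04). Rab3d, a form of secretory cells, was at 0.07 (adjusted p = 0.80, edgeR).

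In cells, Rab3a was the member for which most SNT-side cells lay under the control range on both days. Its medians were 638 CPM (464 to 1002) and 298 CPM (52.8 to 1185) at day 3 and 494 CPM (369 to 660) and 368 CPM (147 to 1138) at day 7. At day 3, 28 of 41 and at day 7, 17 of 33 SNT-side cells were under the control range, yet 7 cells at day 7 were over it, and the log2 ratios of the means were -0.85 and -0.15. Rab3c had medians of 233 CPM (102 to 651) and 189 CPM (52.3 to 403) at day 3, a ratio of -0.42. At day 7 it had medians of 176 CPM (64.0 to 544) and 534 CPM (140 to 1091), a ratio of 1.46, and 16 of 33 SNT-side cells were over the control range. The Rab3c ratio was 2.01 in females and 1.02 in males. For Rab3d the day-7 ratio was -1.04. Over all genes, 2.19% had at least 17 of the 33 cells under the control range at day 7 and 1.09% over it, and of the members Rab3a and Rph3a were so under it and none over it.

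**Figure D3:**
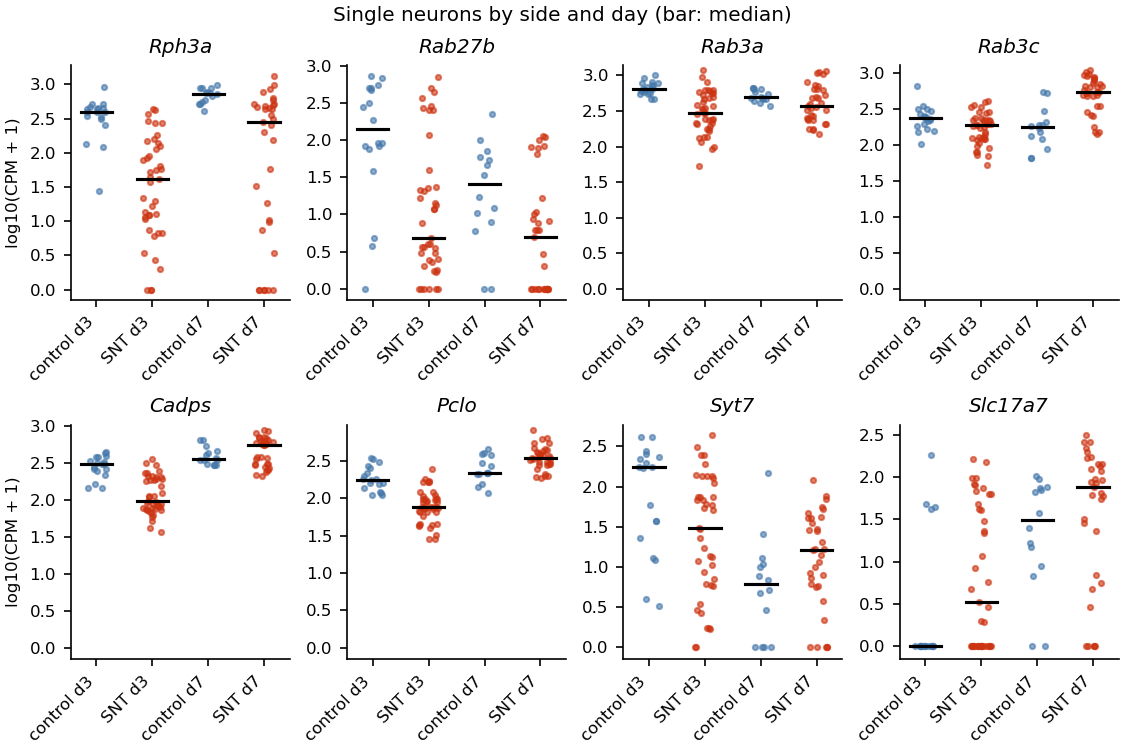
Log10(CPM + 1) of 8 release machinery genes in single neurons, with control-side cells in blue, SNT-side cells in red, 1 point per cell and a bar at the median, for days 3 and 7. Rph3a and Rab27b medians are lower on the SNT side on both days, Cadps and Pclo medians are lower at day 3 and higher at day 7, and the Rab3c median is higher at day 7.

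Among the vesicle membrane proteins and synapsins, 2 of 11 fell in pools and none rose past the limits. Synpr codes for synaptoporin, a relative of synaptophysin. It stood at 1370, 946 and 1361 CPM in control pools and at 171, 168 and 143 CPM in SNT pools, far apart, with a log2 change of -2.77 ± 0.15 (edgeR adjusted p = 1.7e-18). The summed level of 6 markers of non-peptidergic nociceptors moved the same way, from 2835 to 2984 CPM down to 427 to 512 CPM, and its part in the result was not tested. In day-3 cells Synpr ranged from 1.51 to 1586 CPM (median 569) and from 0 to 1455 CPM (median 195), a log2 ratio of -0.92. The day-7 ratio was -1.28, with medians of 45.2 and 11.3 CPM, and it came to -2.66 in males and -0.06 in females. It rests on 1 control-side cell of a male at 983 CPM, with the next at 225 CPM, and was -0.21 without that cell and -0.38 in males.

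Sv2a, the vesicle protein that binds the drug levetiracetam, was low and went opposite ways. It read 19.3, 11.9 and 17.7 CPM in control pools and 5.98, 0.870 and 2.0 CPM in SNT pools, 34 counts against 15 (log2 change -2.20 ± 0.63, edgeR adjusted p = 0.0075). Day-3 cells had means of 23.3 ± 49.5 and 13 ± 27.5 CPM with medians of 0 on both sides. At day 7 the mean was 0.643 ± 1.40 CPM over 14 control-side cells, from 7 counts in all, and 40.2 ± 64.7 CPM over 33 SNT-side cells. That log2 ratio of 4.65 rests on the pseudocount of 1, since it was 5.76 with a pseudocount of 0.1 and 2.24 with 10, and 15 of 33 SNT-side cells had no counts.

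The best known vesicle proteins stayed closer to the control side. Syp (synaptophysin) read 230, 241 and 185 CPM against 338, 297 and 348 CPM in pools, without overlap, a log2 change of 0.74 ± 0.15 (edgeR adjusted p = 1.8e-04). In cells its log2 ratios were -0.05 at day 3 (medians 322 and 266 CPM) and 0.26 at day 7 (medians 439 and 532 CPM). Syn1 (synapsin 1) was at -0.03 ± 0.13 in pools (adjusted p = 0.90, edgeR), and at -0.07 and 0.01 in cells. Sv2c passed the p limit upwards (0.60, adjusted p = 0.0042, edgeR) and Syngr3, a synaptogyrin, downwards (-0.65, adjusted p = 7.1e-04, edgeR). Sypl, a synaptophysin-like protein of many tissues, was at -0.73 (adjusted p = 0.052, edgeR).

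The 2 vesicular glutamate transporters, which fill vesicles with glutamate, were unlike. Slc17a7 (VGLUT1) rose in the pools from 38.5, 29.8 and 37.3 CPM to 78.3, 94.9 and 81.5 CPM, with a log2 change of 1.43 ± 0.24 (edgeR adjusted p = 1.2e-05). Slc17a6 (VGLUT2) read 483, 375 and 406 CPM against 420, 389 and 304 CPM, overlapping, with a log2 change of -0.03 ± 0.14 (adjusted p = 0.92, edgeR). The summed level of 8 large myelinated neuron markers was 1111 to 1408 CPM in control pools and 1513 to 1609 CPM in SNT pools, beside the rise of Slc17a7, and its part in that rise was not tested.

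In cells, Slc17a7 was found in some neurons and not in others. At day 3 it was without counts in 14 of 18 neurons of the control side and in 17 of 41 of the SNT side, with highest values of 180 and 162 CPM and a log2 ratio of 0.68. Cells without counts depend on depth, which was higher on the SNT side at day 3, and its part was not tested. At day 7 Slc17a7 had medians of 30.6 CPM (0 to 103) and 76.5 CPM (0 to 314), a ratio of 1.12, and 12 of 33 SNT-side cells were over the control range. The ratio was 1.36 in females and 0.77 in males. Slc17a6 had medians of 355 CPM (227 to 774) and 376 CPM (39.2 to 1110) at day 3 and of 290 CPM (87.4 to 737) and 252 CPM (3.5 to 743) at day 7, with log2 ratios of 0.20 and -0.17. Across the 41 SNT-side cells of day 3, Spearman's rho of Slc17a7 with Nefh was 0.80, given as a description.

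None of the 3 endocytosis members, Dnm1 (dynamin 1), Amph (amphiphysin) and Sh3gl2 (endophilin A1), passed in the pools, with log2 changes of 0.20, 0.16 and -0.15. In cells their median ratio was -0.49 at day 3 and 0.49 at day 7, without any past the limit.

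Injury was not uniform among SNT-side cells. Atf3, a transcription factor that axotomy switches on, was between 0 and 75.7 CPM in all 18 control-side cells of day 3. Among SNT-side cells of day 3 it was at or under 23 CPM in 11 and between 951 and 4436 CPM in 30, with no cell between. At day 7 it was at or under 13.9 CPM in 21 SNT-side cells and between 704 and 1778 CPM in 12. SNT-side means of the release genes at day 3 and day 7 are thus taken over different mixtures of these cells. Since Atf3 is itself a measured response, the cells were not compared by it, and coefficients are given within each range only. Spearman's rho of Snap25 with Atf3 was -0.54 and -0.57 within the 11 cells of low and the 30 of high Atf3 at day 3, but 0.80 and -0.34 within the 21 and 12 such cells at day 7. Rab3a gave -0.28 and -0.58 at day 3 and 0.76 and 0.29 at day 7, and Vamp2 gave 0.70 and 0.62 at day 3 and -0.69 and 0.21 at day 7. The signs differed between the days or ranges for these genes, which were picked for their values. The cells share mice, day and preparation, and the coefficients of 45 members within the 30 cells had a median of -0.05.

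**Figure D4:**
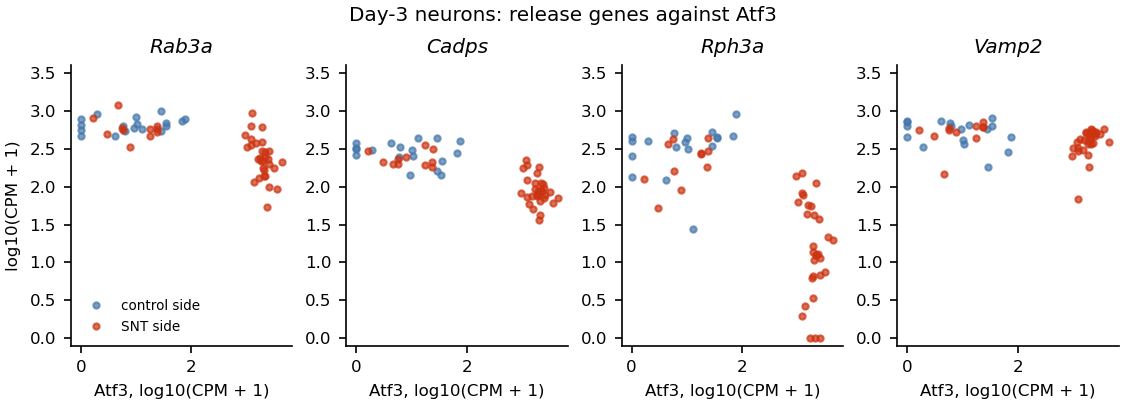
Log10(CPM + 1) of Rab3a, Cadps, Rph3a and Vamp2 against log10(CPM + 1) of Atf3 in day-3 neurons, 1 point per cell, with 18 control-side cells in blue and 41 SNT-side cells in red. The SNT-side cells form separate ranges of Atf3, with 11 cells among the control-side cells and 30 cells at 951 CPM or more.

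Other genes of the pathway, listed with the members, are given for the pools beside the 8.85% of all genes called as higher and 7.1% as lower. Of 52 further release genes tested, 5 rose and 7 fell, with a median of -0.21. The lowest fitted changes were those of Slc17a8 (VGLUT3), with 15.4 counts over the control pools and 2.06 over the SNT pools (ratio per total 0.0592, 95% interval from counting 0.00653 to 0.253), and of Stxbp6 (amisyn), with 58.6, 26.6 and 60.9 CPM against 2.41, 7.5 and 5.54 CPM (log2 change -3.06 ± 0.43, edgeR adjusted p = 3.5e-07). The highest fitted changes were those of Slc18a3, the vesicular acetylcholine transporter, and Syt17, both at 0 in all control pools, with 18 and 16 counts in the SNT pools. Set against 3 counts over the control group these are 2.65-fold and 2.35-fold higher per total, without the counting error of the SNT side. Such ratios do not rank them against Stxbp5l, a second tomosyn gene with counts in all pools. Stxbp5l had a log2 change of 1.56 (edgeR adjusted p = 4.1e-05). Slc17a8 is also 1 of the 5 markers of C-LTMR neurons, whose summed level was 492 to 657 CPM in control pools and 89.1 to 149 CPM in SNT pools, and the part of that was not tested.

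Of 22 further endocytosis genes 3 rose and none fell, with a median of 0.24, against the same shares of all genes. Bin1 (amphiphysin 2) rose from 92.1, 117 and 83.4 CPM to 218, 224 and 181 CPM (log2 change 1.23 ± 0.18, edgeR adjusted p = 7.6e-07). Cltb, a clathrin light chain, rose from 318, 433 and 383 CPM to 747, 808 and 796 CPM (log2 change 1.21 ± 0.13, edgeR adjusted p = 2.4e-09). The lowest changes in this list, Pacsin1 (-0.89) and Dnajc6 (-0.68), did not reach the size limit. None of 17 subunits of the vesicular proton pump, which acidifies vesicles so that transmitter can be loaded, was called, with Atp6ap2 (0.80) and Atp6v0b (0.79) highest and Atp6v0c (-0.68) and Atp6v0e (-0.60) lowest.

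Of 13 dense core vesicle genes 3 rose and 1 fell in pools. Vgf, a neuropeptide precursor, rose from 38.5, 38.1 and 47.9 CPM to 161, 163 and 179 CPM (log2 change 2.19 ± 0.21, edgeR adjusted p = 4.2e-11). Ptprn, the dense core vesicle protein IA-2, rose from 56.4, 78.7 and 62.1 CPM to 243, 210 and 242 CPM (log2 change 1.96 ± 0.18, edgeR adjusted p = 3.6e-11). Scg3 (secretogranin 3), which sorts cargo into these vesicles, fell from 1423, 1204 and 1489 CPM to 406, 420 and 286 CPM (log2 change -1.73 ± 0.14, edgeR adjusted p = 2.7e-13), and Pcsk2, a prohormone convertase, was next at -0.56, short of the size limit. Beside the median of 0.02 over all genes, the medians of the further lists ran from -0.21 for release genes to 0.24 for endocytosis genes.

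The 11 day-3 libraries that the authors removed, 4 of the control side and 7 of the SNT side, were no part of these comparisons, apart from the alternative that put them back. Their summed glial markers were 44459 to 104774 CPM, against 900 to 14981 CPM in the 59 kept cells of day 3, and their summed sensory neuron markers 254 to 4998 CPM against 8124 to 18491 CPM. Neuronal forms were low in them: Snap25 had a median of 142 CPM against 844 CPM in kept cells and Syp 58.0 against 284 CPM. The widely expressed forms Vamp3, Sypl and Snap23 were high, with medians of 193 against 30.8 CPM, 141 against 35.5 CPM and 59.8 against 2.18 CPM. Stx2, the syntaxin found in many tissues, was low, with a median of 16.9 against 114 CPM.

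**Figure D5:**
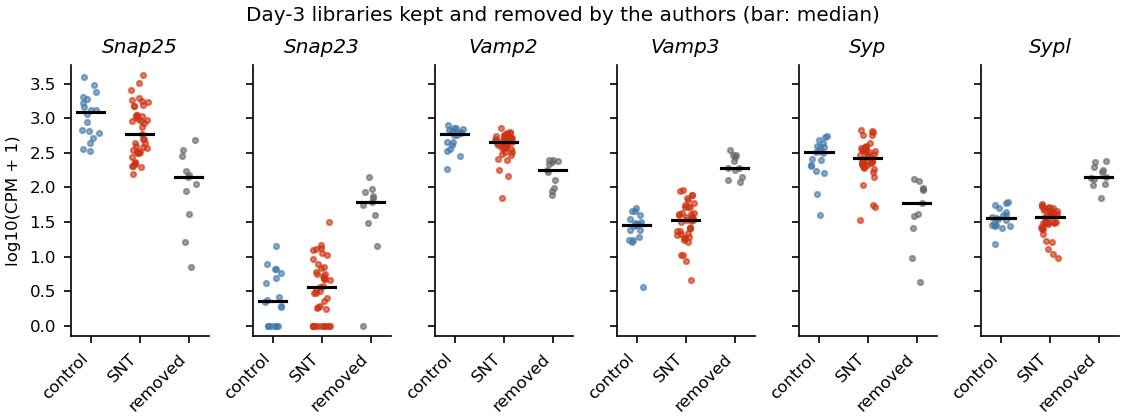
Log10(CPM + 1) in day-3 libraries of neuronal forms (Snap25, Vamp2, Syp) beside the related, widely expressed forms (Snap23, Vamp3, Sypl), 1 point per library, for kept control-side cells (blue), kept SNT-side cells (red) and the 11 removed libraries of both sides (grey), with bars at the medians. Vamp3 and Sypl lie above every kept cell in all 11 removed libraries.

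Promoters were read for the called members. RefSeq windows of 300 bases, from 250 before to 50 after a start on GRCm38.p6, matched 41 members with 54 windows, among them 9 of the 12 called. Both strands were searched for the AP-1 motif TGANTCA, the CRE motif TGACGTCA and the GC box GGGCGG, and matches that share bases were each counted. The AP-1 motif was in 3 of 54 member windows and in 7.81% of all 32851 windows, the CRE in 3 of 54 and in 1.79%, and the GC box in 35 of 54 and in 35.7%. Of the 13 windows of called members, 1 held the AP-1 motif, 1 the CRE and 9 the GC box. The first window listed is shown for Synpr, Rph3a, Rab3b and Napa. Among called members with a window, Synpr had the lowest and Rab3b the highest change in pools. Rph3a, also past the limits downwards in all 3 comparisons, was picked for its AP-1 motif and Napa for its CRE. Motifs are in capitals, 5′ to 3′ along the gene:
Synpr, chr14:13284530-13284829, plus strand: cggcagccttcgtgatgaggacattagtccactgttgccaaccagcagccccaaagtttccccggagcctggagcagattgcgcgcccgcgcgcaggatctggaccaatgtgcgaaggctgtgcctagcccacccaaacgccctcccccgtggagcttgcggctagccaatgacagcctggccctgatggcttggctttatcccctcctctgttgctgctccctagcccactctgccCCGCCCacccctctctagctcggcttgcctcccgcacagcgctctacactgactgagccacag
Rph3a, chr5:121010043-121010342, minus strand: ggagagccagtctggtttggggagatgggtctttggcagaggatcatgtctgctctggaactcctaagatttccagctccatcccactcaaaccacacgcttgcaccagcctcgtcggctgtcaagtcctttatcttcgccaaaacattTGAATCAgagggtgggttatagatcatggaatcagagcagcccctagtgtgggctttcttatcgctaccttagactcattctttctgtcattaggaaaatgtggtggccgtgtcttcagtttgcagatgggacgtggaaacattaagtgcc
Rab3b, chr4:108878820-108879119, plus strand: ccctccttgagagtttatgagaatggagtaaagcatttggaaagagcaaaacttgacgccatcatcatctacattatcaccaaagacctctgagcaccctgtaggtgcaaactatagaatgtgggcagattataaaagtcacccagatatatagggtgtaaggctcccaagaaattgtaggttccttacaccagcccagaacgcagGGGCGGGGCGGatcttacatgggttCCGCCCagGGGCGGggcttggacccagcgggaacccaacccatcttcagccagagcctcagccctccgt
Napa, chr7:16098330-16098629, plus strand: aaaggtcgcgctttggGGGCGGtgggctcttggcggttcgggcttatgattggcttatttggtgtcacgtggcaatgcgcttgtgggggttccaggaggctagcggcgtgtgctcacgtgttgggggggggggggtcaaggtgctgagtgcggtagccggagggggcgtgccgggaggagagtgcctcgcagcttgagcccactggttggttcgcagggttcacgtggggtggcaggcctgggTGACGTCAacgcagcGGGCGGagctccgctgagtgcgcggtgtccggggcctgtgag
Counted from 1 at the 5′ end of each window, Synpr has 1 GC box at bases 238 to 243, Rph3a has an AP-1 motif at 150 to 156, Rab3b has 4 GC boxes between 207 and 245, and Napa has a CRE at 244 to 251 and 2 GC boxes. These matches are of the shown windows only, out of 2 windows for Synpr, 3 for Rph3a and 1 each for Rab3b and Napa. A match describes letters in the window and says nothing of whether a factor binds there.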

How the data were processed

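Single neurons and pooled neurons were profiled by RNA sequencing. Per the labels and methods, the authors used bowtie2 for alignment and RSEM for estimates over the exons of RefSeq genes, without ribosomal RNA, and mm9 and CASAVA 1.8.2 are named in the submitters' processing notes. Strand is not given in the sources used here, so reads of a gene and an antisense partner cannot be told apart. The deposited tables, named TPM, hold expected counts: library totals run from 223967 to 2003817 and 60.7% to 93.6% of values above 0 are whole. The source label calls all 6 pooled libraries intact.

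Counts were rounded, which changed totals by at most 0.00757%, and tested with edgeR 4.0.16 in R 4.3.3 (quasi-likelihood test, TMM, genes averaging 1 CPM or more, prior count 0.125, Benjamini-Hochberg over all genes tested). The authors used DEseq. In cells, means of CPM, the SD over cells and log2 ratios of mean CPM + 1 were computed in Python 3.11.15. Intervals are exact at 95% and cover counting error only. No doublet search was made, because neurons were picked 1 by 1.

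Members and lists were chosen with earlier results of these data known. The genes given by library are the called members, those past the fold in the same direction in cells on both days, the best known members (Snap25, Syt1, Vamp2, Stx1a, Syp, Slc17a6 and Slc17a7) and the 2 largest rises and falls of each further list. The members nearest the size limit in pools were Napa, Syt1, Syt7 and Snap23. Cplx1, Cplx2, Cadps, Pclo, Rab3a, Rab3c, Snap23, Vamp3 and the other members given with values were added after their values were seen. Same-numbered pooled libraries of the sides were not paired (correlations of deviations 0.058, -0.017 and -0.006). Alternatives were other scalings, filters, pseudocounts, medians, sexes alone, libraries left out, limma 3.58.1 and DESeq2 1.42.0. Both scripts of tests were tested on simulated data. No genome of the files' build was used, and promoter windows are from RefSeq on GRCm38.p6.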

Additional observations from a re-analysis of the deposited data

Results flagged for a closer look

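A pair of signals lay in the 11 day-3 libraries that the authors removed, which entered only the alternative that put them back. Vamp3 had a mean of 217 ± 76.1 CPM (SD over 11 libraries) in them, against 34 ± 19.8 CPM over the 59 kept cells of day 3, and every removed library was above every kept cell. Sypl had a mean of 155 ± 53.0 CPM against 35.4 ± 12.3 CPM, also with every removed library above every kept cell. The summed glial markers of these libraries are given with the plot of the neuronal and widely expressed forms, and their part in both signals was not tested. Only the members were searched for this pattern. No share over all genes is given, so the pair cannot be read as particular to the members.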

How the results depend on the processing

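In pools, the 12 calls became 25 with the adjusted p alone (11 higher, 14 lower), and the 3 higher calls became 1 among genes averaging 10 CPM or more, where Rab3b was not tested and Napa was at 0.99. Leaving out 1 library at a time gave 10 to 12 calls, 3 of them higher and 7 to 9 lower. Without control library 3 Napa was short of the size limit, so the 3 higher calls there are not the same members. The other alternatives gave 9 to 13 calls, with 12 by DESeq2 and 13 by limma with trend. With the replicate number as a block there were 12 calls, 3 higher and 9 lower, and no call of a member changed, although the numbers pair nothing. For named genes, 227 values under alternatives kept direction and side of the limits and 9 lost the size limit, all of Napa (0.86 to 0.99), Syt1, Syt7 (-0.88 after thinning to 563419 counts) and Syt9, and none turned.

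In day-3 cells the 7 members past the fold became 16 by medians (1 higher, 15 lower), 12 by counts summed over cells (1 higher, 11 lower) and 3 with the removed cells (1 higher, 2 lower). Higher members went from 0 to 1 with no limit on low values (Doc2b) and without the highest cell of each side or of the control side (Slc17a7 in both), and with a pseudocount of 10 Syt7 and Syt9 were lost. At day 7 the 8 became 5 with a pseudocount of 10 (3 lower) and 5 in males alone (2 lower). Higher members became 6 in females alone, and lower ones 3 under median-of-ratios scaling and 2 without the highest cell of each side. Without the highest control-side cell 6 were higher and 1 lower. Rab27b lost the limit under median-of-ratios scaling, with a pseudocount of 10, in males and without the highest cell, and Rph3a in males. Summed counts and the highest cells were alternatives chosen after seeing the data. No day-7 cell had been removed, so that alternative gave no value there. Shares of all genes under these alternatives in cells are not given, and the causes were not tested.

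The smallest pooled library held 563462 counts, so Doc2b, Rab3b, Sv2a, Slc18a3, Syt17 and Slc17a8 rest on few reads. Cells hold no replicate check between animals, copies made in amplification were counted as reads, and the sides of the pools rest on column names.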
